A study of Mus musculus with 9 samples.

Results

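The Kruppel-like factors (KLFs) are zinc finger transcription factors that bind GC-rich and CACCC-type sites. Described here are 10 Klf genes, Klf2, Klf3, Klf4, Klf6, Klf7, Klf9, Klf10, Klf13, Klf15 and Klf16, out of 17 Klf genes and 38898 genes in the deposited table. They were chosen by symbol with their values in these libraries already known, and their counts are the sums of the RefSeq transcripts of each symbol. Since the members were chosen with the difference between the libraries labelled SAE and CTL in view, their values in that comparison are given as a description, with no test.

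The study sequenced ribosomal-RNA-depleted total RNA from the hippocampus of 9 healthy adult BALB/c mice kept free of specific pathogens, in 3 groups of 3. The group labelled CCLF underwent CLP (puncture of the tied-off cecum, which causes abdominal sepsis) and received Cuscuta chinensis Lam. flavonoids at 200 mg/kg. The group labelled SAE, named for sepsis-associated encephalopathy, had CLP alone. The group labelled CTL had a sham operation. The labels call the 3 libraries of a group biological duplications. The time after surgery and the route of the flavonoids are not stated in the labels, and the hippocampus was taken as bulk tissue, in which fewer cells of a type and less RNA per cell cannot be told apart.

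KLFs share a DNA-binding end of zinc fingers and differ in the part that recruits partners. In blood vessels, KLF2 and KLF4 are known as factors that flow induces and that hold down inflammatory genes. KLF9 and KLF15 are known as direct targets of steroid hormone receptors, KLF9 also of the thyroid hormone receptor. In neurons, KLF4 and KLF9 are known to restrain axon growth, and KLF6 and KLF7 to favour it.

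Library totals ran from 4626519 to 4895474 counts. The libraries went against their labels. The summed expression of 5 inflammation genes (Lcn2, Cxcl10, Ccl2, Icam1 and Steap4), which are known to rise in septic brain, was 12 to 19.1 CPM (counts scaled to one common total for every library) in the libraries labelled SAE and 3450 to 5180 CPM in those labelled CTL. Every direction below is therefore one between labels. The CCLF columns also stood apart. Among 6348 transcripts with a mean of at least 20 counts, each CCLF library lay inside the range of the 6 SAE and CTL libraries in 99.2% of transcripts, whereas an SAE or CTL library lay inside the range of the other 5 in 62.1% to 75.3%. The median ratio of variance to mean over these transcripts was 0.536 in the CCLF group, 1.5 in the SAE group and 1.54 in the CTL group. Counting error alone makes the variance about equal to the mean. The CCLF columns thus varied less than counting error, and not as separate libraries would. All 30 of 30 CCLF counts of the 10 Klf genes fell inside the range of the other 6 libraries, so CCLF counts are shown as values only.

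The promoters of 5 members are shown because Klf2, Klf4, Klf6 and Klf9 were lower together in the libraries labelled SAE while Klf13 was not. Each is the 250 bases before the start of the gene in RefSeq (build GRCm38.p6), written in the direction of the gene, with GC boxes (GGGGCGGGG) and CCAAT boxes in capitals on either strand.
Klf2 promoter, chr8:72318812-72319061, plus strand: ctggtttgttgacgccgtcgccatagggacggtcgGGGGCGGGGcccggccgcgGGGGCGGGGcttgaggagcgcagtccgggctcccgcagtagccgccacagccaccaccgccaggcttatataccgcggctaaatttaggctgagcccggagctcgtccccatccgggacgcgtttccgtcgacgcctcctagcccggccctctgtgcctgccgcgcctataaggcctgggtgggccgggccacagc
Klf4 promoter, chr4:55532476-55532725, minus strand: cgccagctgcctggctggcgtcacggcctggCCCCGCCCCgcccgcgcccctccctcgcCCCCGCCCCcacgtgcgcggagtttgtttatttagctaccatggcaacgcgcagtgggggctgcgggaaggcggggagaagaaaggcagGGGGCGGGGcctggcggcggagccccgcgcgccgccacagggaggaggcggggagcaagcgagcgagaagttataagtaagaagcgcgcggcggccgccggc
Klf6 promoter, chr13:5861239-5861488, plus strand: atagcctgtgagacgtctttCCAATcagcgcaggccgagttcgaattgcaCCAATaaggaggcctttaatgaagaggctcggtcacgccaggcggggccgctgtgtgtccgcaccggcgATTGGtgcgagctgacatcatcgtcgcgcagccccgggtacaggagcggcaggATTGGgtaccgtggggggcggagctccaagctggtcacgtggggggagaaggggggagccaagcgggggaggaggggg
Klf9 promoter, chr19:23140976-23141225, plus strand: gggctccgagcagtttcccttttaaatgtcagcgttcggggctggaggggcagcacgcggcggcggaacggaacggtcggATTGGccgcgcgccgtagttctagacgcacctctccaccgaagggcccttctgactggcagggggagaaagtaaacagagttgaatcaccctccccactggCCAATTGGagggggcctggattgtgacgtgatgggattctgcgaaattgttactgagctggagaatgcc
Klf13 promoter, chr7:63938916-63939165, minus strand: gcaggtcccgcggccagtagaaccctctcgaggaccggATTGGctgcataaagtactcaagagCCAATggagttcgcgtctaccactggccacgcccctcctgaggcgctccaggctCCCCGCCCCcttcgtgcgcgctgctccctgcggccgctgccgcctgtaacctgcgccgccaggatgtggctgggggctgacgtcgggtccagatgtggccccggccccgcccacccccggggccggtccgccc

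These promoters were rich in G and C. Over the 8 members with a RefSeq promoter (all but Klf10 and Klf16) the GC content ran from 59.2% to 78.4%, against a median of 52.4% over 32851 promoters, and CpG pairs numbered 13 to 37, against a median of 6. The windows of Klf7 and Klf15 lie inside the span of the gene, before an inner start, and the other 6 lie just before the gene. A GC box was found in 5 of 8 member promoters (Klf2, Klf3, Klf4, Klf13 and Klf15) and in 10.4% of all promoters. The 5 with a GC box had 71.2% to 78.4% GC, and the other 3 had 59.2% to 64.8%. The 10.4% is therefore not a share among promoters of like GC content. Klf2 held it at 2 places and Klf4 at 3. The CCAAT box was found in 4 of 8 (Klf6, Klf9, Klf13 and Klf15) and in 33.8% of all promoters, at 4 places in Klf6 and at 3 in Klf9, of which 2 overlap. By these exact letters the Klf2 and Klf4 promoters held GC boxes and no CCAAT box, and those of Klf6 and Klf9 the reverse. The levels of all 4 genes were lower in the libraries labelled SAE. GC boxes of looser spelling were not searched. The letters of an E-box (CACGTG, 6.02% of all promoters) stood in Klf4, Klf6 and Klf15, and AP-1 letters (TGANTCA, 6.75%) in Klf9. The short CACCC box was in 6 of 8 and in 52% of all. Each motif was searched only as a fixed pattern of letters, so sites written otherwise, GC boxes among them, may stand in these windows. The Klf2 promoter does hold ctaaatttag, a looser MEF2 spelling with AATT between CTA and TAG. Looser MEF2 spellings were not searched for, and no use of this site was tested. Of 11 motifs searched on both strands, the other 6 had no match by their letters. They were the letters CTA, TTTA and TAG in a row for MEF2 (0.14% of all promoters), TGACGTCA for the cAMP response element (1.55%), TATAAA (12.4%), AGAACA and TGTTCT with 3 bases between them for the glucocorticoid response element (0.00913%), its half-site TGTTCT (16.1%) and the CArG box (1.47%).

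Of the 10 members, 8 had enough counts for the fit over the whole table. The 6 members with 1 RefSeq transcript (Klf2, Klf4, Klf6, Klf9, Klf13 and Klf16) were all among them. The 4 with several transcripts had few counts. Of genes in the table with 1 transcript 23.2% could be tested, and of those with several 18.8%. How the reads of such a gene were divided among its transcripts is not stated, and many of those transcripts are listed at 0, so the values of Klf3, Klf7, Klf10 and Klf15 may not stand for the whole gene.

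The endothelial members were both lower in the libraries labelled SAE. Klf2 is the flow-induced factor that in endothelium raises vasodilator and anticoagulant genes. It had 204, 222 and 186 counts in the libraries labelled SAE, against 471, 509 and 483 in those labelled CTL. Every SAE count was below every CTL count, with a gap wider than the spread in either group. On the TMM-scaled CPM scale Klf2 averaged 43.1 ± 4.58 in SAE and 103 ± 2.85 in CTL (SD, n = 3 each), a log2 fold of −1.27 ± 0.09 (SE), the most negative among the members. Its CCLF counts were 422, 331 and 262, all above the SAE counts and below the CTL counts. Klf4, which shares many endothelial targets with Klf2 and is also a factor of monocyte differentiation, had 91, 124 and 91 counts in SAE, against 172, 238 and 210 in CTL. The groups did not overlap. Klf4 averaged 21.6 ± 4.36 CPM in SAE and 43.7 ± 6.06 CPM in CTL (n = 3 each, log2 fold −1.03 ± 0.14), with CCLF counts of 150, 99 and 153. The ratio of Klf2 to Klf4 counts ran from 1.79 to 2.24 in SAE and from 2.14 to 2.74 in CTL, ranges that overlap.

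Markers of endothelium were mixed. Of 10 endothelial markers 4 could be tested, and Itm2a (log2 fold 2.22 ± 0.08), Kdr (1.03 ± 0.24) and Flt1 (0.6 ± 0.07) rose in the libraries labelled SAE, while Cldn5 fell (−1.06 ± 0.08). The summed level of the 10 was 435 to 461 CPM in SAE and 301 to 343 CPM in CTL. That sum leans on Itm2a, which averaged 192 CPM in SAE and 40.9 CPM in CTL. Cldn5 averaged 76.3 CPM in SAE and 157 CPM in CTL, so the sum gives no direction for endothelium as a whole. Pecam1 and Emcn were listed at 0, and Cdh5, Tek and Slco1a4 had 3 or fewer counts in every library. The 5 pericyte markers summed to 477 to 565 CPM in SAE and 311 to 337 CPM in CTL, with Pdgfrb, Kcnj8 and Abcc9 listed at 0. Klf2, Klf4 and Klf6 are also known in myeloid cells. Of 5 tested microglia markers 4 rose, among them Siglech, which had only 0.0694 CPM in CTL. C1qa had a log2 fold of −0.76 ± 0.26, with every SAE library below every CTL library, and was not called (adjusted p = 0.0789 by edgeR). All 7 microglia markers summed to 581 to 624 CPM in SAE and 445 to 631 CPM in CTL, with P2ry12 at 0. The 5 neutrophil markers summed to 1.03 to 2.33 CPM in SAE and 45.9 to 59.8 CPM in CTL, with S100a9 and Ly6g at 0. The part of these cell types in the Klf levels was not tested.

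The hormone-responsive members were lower as well. Klf9, which glucocorticoids and thyroid hormone induce and which takes part in the maturation of dentate gyrus neurons, had 4329, 4569 and 4273 counts in the libraries labelled SAE, against 7600, 8286 and 7316 in those labelled CTL. The groups were far apart, and the spread within each was narrow, with a coefficient of variation of 5.27% in SAE and 6.4% in CTL. Klf9 averaged 927 ± 48.9 CPM in SAE and 1640 ± 105 CPM in CTL (n = 3 each, log2 fold −0.83 ± 0.05). The CCLF counts of Klf9 were 7000, 4527 and 4416. The first lay near the CTL counts, and the other two lay within the range of the SAE counts.

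Klf15, a glucocorticoid receptor target known in liver and muscle for control of amino acid breakdown, had 36, 47 and 28 counts in SAE, against 82, 53 and 69 in CTL. The lowest CTL count stood close to the highest SAE count. Klf15 averaged 7.84 ± 2.15 CPM in SAE and 14.4 ± 3.42 CPM in CTL (n = 3 each, log2 fold −0.89 ± 0.22), and its CCLF counts were 52, 47 and 65. Of its 9 transcripts 4 had any count. The curated mRNA with most counts had 22, 24 and 10 in SAE, against 23, 26 and 23 in CTL, values that overlap. A predicted mRNA had 10, 19 and 13 in SAE, against 44, 22 and 30 in CTL, and a predicted non-coding RNA had 3, 4 and 5 in SAE, against 15, 5 and 16 in CTL. The predicted mRNA alone gave a log2 fold of −1.2 ± 0.33. At such counts no difference between transcripts was tested.

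**Figure D1:**
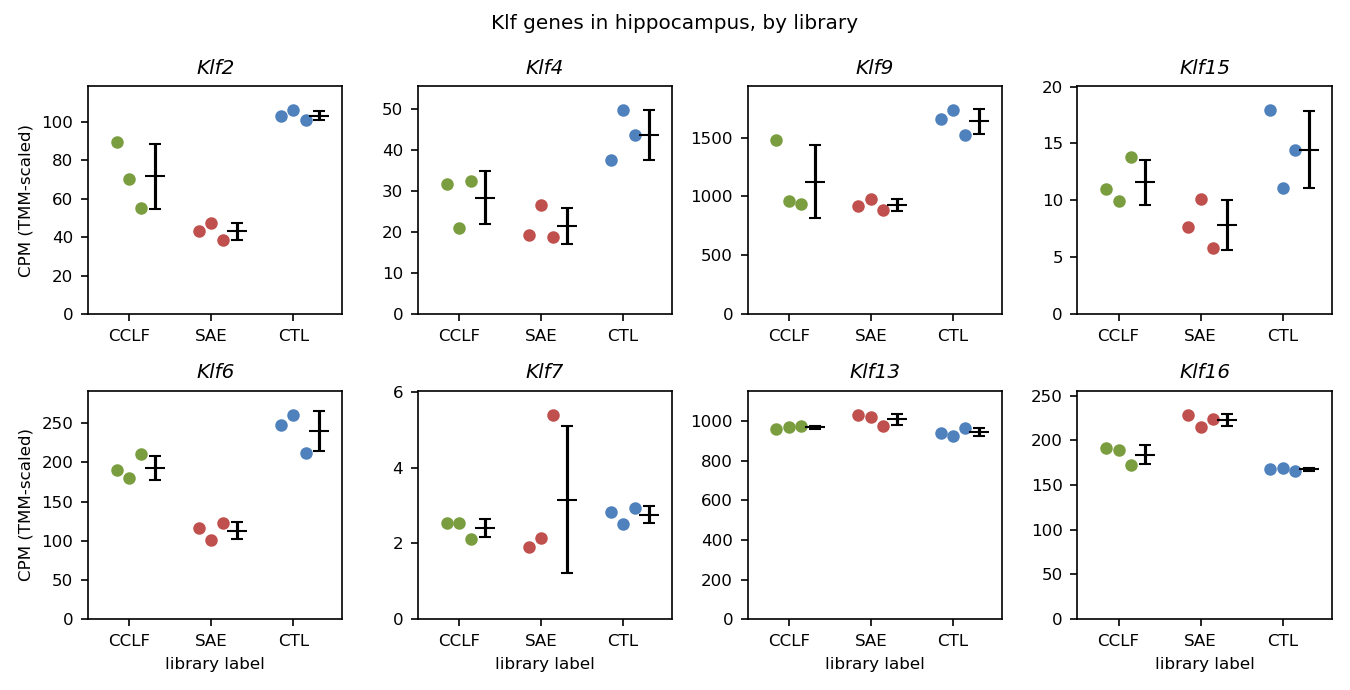
TMM-scaled CPM (linear axes from 0) of the 8 Klf genes with enough counts, by library label, with 1 point a library and the mean ± SD (n = 3) beside it. For Klf2, Klf4, Klf9, Klf15 and Klf6 every SAE point lies below every CTL point, for Klf13 and Klf16 above, and for Klf7 the groups overlap.

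Of the inducible members, Klf6 could be read and Klf10 could not. Klf6, an early gene of tissue injury that favours axon growth in fish and mouse neurons, had 545, 470 and 591 counts in the libraries labelled SAE, against 1134, 1244 and 1019 in those labelled CTL. Each SAE library had fewer counts than any CTL library. Klf6 averaged 113 ± 11 CPM in SAE and 240 ± 24.7 CPM in CTL (n = 3 each, log2 fold −1.1 ± 0.08). Its CCLF counts were 898, 851 and 992, between the other groups and below each CTL count. Klf10, the TGF-beta-inducible early gene, had 5, 1 and 4 counts in SAE, against 1, 0 and 4 in CTL, spread over 2 of its 3 transcripts. Its CCLF counts were 2, 1 and 1. Its remaining transcript, a curated mRNA, was listed at 0 in every library, so Klf10 was not compared.

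Klf7, the neuronal member, which in mouse is needed for the TrkA receptor of sensory neurons, had 9, 10 and 26 counts in SAE, against 13, 12 and 14 in CTL. SAE replicate 3 was the highest of all and the other two were the lowest of the 6, so the groups overlap. Klf7 averaged 3.14 ± 1.94 CPM in SAE and 2.75 ± 0.219 CPM in CTL (n = 3 each, log2 fold 0.19 ± 0.4), and −0.44 ± 0.45 without SAE replicate 3. Only 1 of its 7 transcripts had counts. The CCLF counts of Klf7 were 12, 12 and 10.

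Of 3 further members known as repressors, Klf13 and Klf16 were not lower, and Klf3 could not be compared. Klf13, which recruits the SIN3A corepressor, had 4854, 4736 and 4723 counts in the libraries labelled SAE, against 4314, 4426 and 4629 in those labelled CTL. All SAE counts were higher, by a small step. Klf13 averaged 1010 ± 27.3 CPM in SAE and 944 ± 20.1 CPM in CTL (n = 3 each, log2 fold 0.08 ± 0.04), and had 4532, 4576 and 4611 counts in CCLF. The non-coding gene Gm27252 overlaps Klf13 and had 11, 11 and 2 counts in SAE, against 41, 36 and 43 in CTL. Whether counting used strand is not given in the sources used here.

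Klf16, a related SIN3-binding factor, had 1077, 1004 and 1085 counts in SAE, against 769, 808 and 798 in CTL. The groups did not overlap. Klf16 averaged 223 ± 6.68 CPM in SAE and 168 ± 1.27 CPM in CTL (n = 3 each, log2 fold 0.4 ± 0.06), with CCLF counts of 902, 891 and 812. Klf3, a repressor that binds CtBP, had 3, 0 and 4 counts in SAE, against 1, 2 and 3 in CTL, and 1, 3 and 2 in CCLF. Its main curated mRNA was listed at 0 in every library, and no difference could be seen. A protein-coding gene that overlaps Klf3, Gm38457, had 139 to 200 counts.

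Of the 8 members in the fit, every SAE library lay below every CTL library in 5 (Klf2, Klf4, Klf6, Klf9 and Klf15) and above in 2 (Klf13 and Klf16). Over all 8213 genes tested the groups did not overlap in 55.7%, with SAE below in 27.8% and above in 27.9%. By edgeR's quasi-likelihood test, at an adjusted p under 0.05, 47.6% of these genes were called, 23.7% higher and 23.9% lower. Among the 4776 tested genes with 1 RefSeq transcript, which 6 of the members are, 54.3% were called, 25% higher and 29.3% lower. The members were chosen on this comparison, so nothing is read from their numbers. The median log2 fold of the 8 was −0.86, and that of all genes tested was 0.

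**Figure D2:**
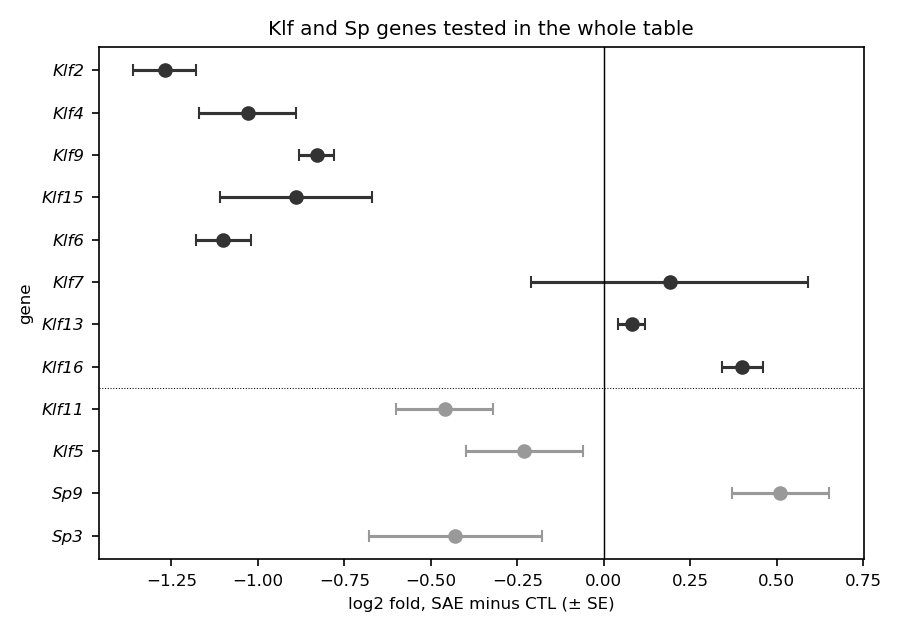
Log2 fold, SAE minus CTL, with its standard error, for the 8 members in the fit (dark) and, under the dotted line, for the Klf and Sp genes outside the rule that could be tested (grey). Klf2 has the most negative value at −1.27, Klf16 is at 0.4, and Klf7 has the widest error.

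The make-up of the family within a library shifted with the label. Klf9 and Klf13 together gave 81.7% to 83.2% of the counts of the 10 members in the libraries labelled SAE and 81.6% to 82.1% in those labelled CTL. The ratio of the pair differed between the labels. Klf9 had 0.892, 0.965 and 0.905 counts for each Klf13 count in SAE, against 1.76, 1.87 and 1.58 in CTL, a ratio that does not depend on library size. The CCLF libraries had ratios of 1.54, 0.989 and 0.958. The counts of Klf6 for each Klf13 count were 0.0992 to 0.125 in SAE and 0.22 to 0.281 in CTL, and those of Klf16 were 0.212 to 0.23 in SAE and 0.172 to 0.183 in CTL. The 10 members summed to 11011 to 11183 counts in SAE and 14545 to 15578 counts in CTL.

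Levels between genes can be set side by side only per length, here CPM per kilobase of the GENCODE M21 transcript matched to the counted RefSeq mRNA. Klf9 came first, at 207 ± 10.9 CPM per kilobase in SAE and 365 ± 23.4 in CTL (n = 3 each). Klf13 came second, at 158 ± 4.28 in SAE and 148 ± 3.15 in CTL, and then Klf16, at 83.3 ± 2.5 in SAE and 62.7 ± 0.475 in CTL. Klf6 (26.7 ± 2.59 in SAE, 56.8 ± 5.84 in CTL) and Klf2 (23.3 ± 2.48 in SAE, 55.9 ± 1.54 in CTL) followed, and these neighbours overlap in either group. Klf4 was lower, at 7.12 ± 1.44 in SAE and 14.4 ± 2 in CTL, and Klf7 was the lowest of these 7 genes, at 0.41 ± 0.253 in SAE and 0.359 ± 0.0285 in CTL. Klf3, Klf10 and Klf15 had no matched length and are not in this order.

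**Figure D3:**
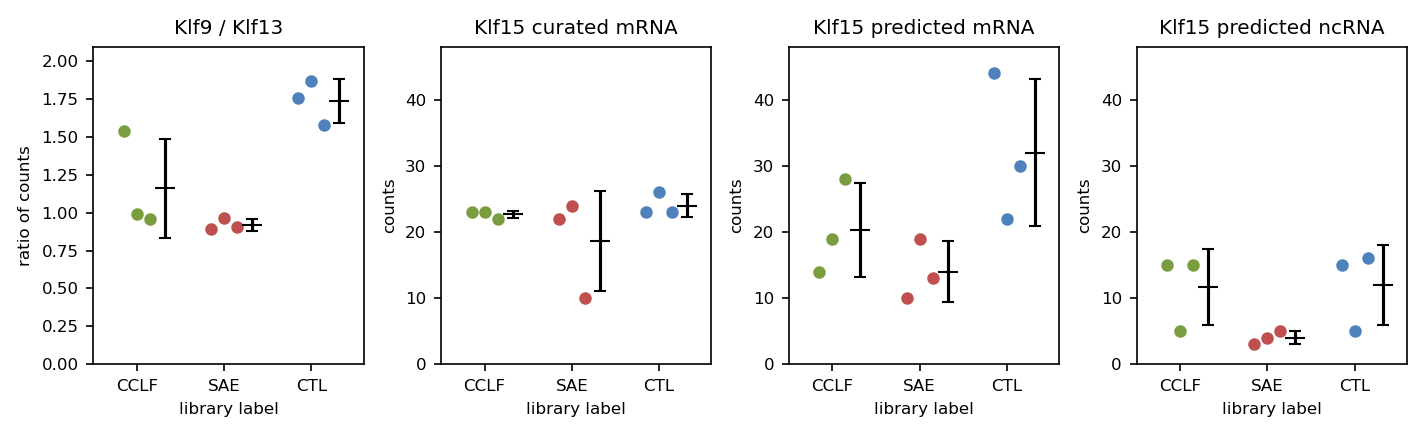
Left, counts of Klf9 divided by counts of Klf13 in each library. The other panels show counts of the 3 Klf15 transcripts with most counts, with the mean ± SD (n = 3) beside the points. The ratio lies below 1 in the 3 SAE libraries and between 1.58 and 1.87 in the 3 CTL libraries, and the curated Klf15 mRNA overlaps between SAE and CTL.

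The Klf genes outside the rule were mostly too low to test. Of 7 such genes 2 were tested. Klf11, a TGF-beta-inducible relative of Klf10, fell in the libraries labelled SAE, with 105, 103 and 149 counts against 157, 176 and 151 in CTL (log2 fold −0.46 ± 0.14, with an edgeR adjusted p of 0.00912). Its call was lost without SAE replicate 1 (adjusted p = 0.0617) and without SAE replicate 2 (adjusted p = 0.0661), in a range of 0.000962 to 0.0661. Without CTL replicate 1, 2 of the 7 genes were called lower. The second was not Klf5, whose adjusted p ran from 0.17 to 0.569 over the fits. By its counts it was Klf14, which was not in the main fit. Klf14 entered that fit through its remaining CTL counts of 13 and 20, so nothing is read from its call. Klf5, a factor of epithelium and smooth muscle, had 64, 81 and 70 counts in SAE, against 80, 94 and 75 in CTL (log2 fold −0.23 ± 0.17, adjusted p = 0.276). Klf14 had 4, 6 and 5 counts in SAE, against 6, 13 and 20 in CTL, and Klf1 had 4 to 6 in SAE, against 5 to 7 in CTL. Klf8, Klf12 and Klf17 had 0 to 3 counts in every library.

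The Sp factors are the nearest relatives of the KLFs and bind the same GC boxes. Of 9 Sp genes 2 were tested. Sp9, a factor of interneuron development, rose in SAE, with 106, 130 and 140 counts against 81, 89 and 91 in CTL (log2 fold 0.51 ± 0.14, adjusted p = 0.00519 by edgeR). Sp3 had 35, 37 and 18 counts in SAE, against 40, 39 and 41 in CTL (log2 fold −0.43 ± 0.25, adjusted p = 0.174), or −0.15 without SAE replicate 3. Sp5 had 2 to 5 counts in SAE and 5 to 9 in CTL, and the other Sp genes had at most 3 counts in any library.

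Genes known around the KLFs were described by lists, each read against the 23.7% of all tested genes called higher and the 23.9% called lower. Of 144 list genes in the table, 50 had 3 or fewer counts in every library, and 48 of those have several RefSeq transcripts. Among these were Nos3, Mapk7, Mef2a, Mef2c, Mef2d, Sin3a, Ctbp1, Ep300, Arc, Tgfbr2 and Stat3, each listed at 0 in every library, so the partners nearest to several members could not be read.

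Genes that KLF2 or KLF4 is known to hold down in endothelium were lower. Of 8 tested, 8 fell in the libraries labelled SAE and 0 rose, with a median log2 fold of −2.95. The number called lower was 7 with limma-voom, with no filter and without SAE replicate 2, CTL replicate 1 or CTL replicate 2, and 6 without SAE replicate 1 or SAE replicate 3. Angpt2, a gene of vessel destabilisation, averaged 8.12 ± 1.94 CPM in SAE and 55.5 ± 1.36 CPM in CTL (log2 fold −2.78 ± 0.15, adjusted p = 1.25e-13 by edgeR). The log2 fold was −2.49 ± 0.19 for Edn1, the gene of the vasoconstrictor endothelin, and −0.84 ± 0.07 for Vcam1, a leukocyte adhesion gene. F3, the tissue factor gene, had a log2 fold of −0.23 ± 0.07 and overlapping groups. Icam1 and Ccl2 of this list are among the genes that went against the labels. Klf2, Klf4 and these genes were lower in the same libraries, and no link between them was tested.

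Genes that KLF2 or KLF4 is known to raise in endothelium were mixed. Of 6 tested, 2 rose and 2 fell, with a median of −0.05. Cldn5, the tight junction gene of brain endothelium, averaged 76.3 ± 5.04 CPM in SAE and 157 ± 16.4 CPM in CTL (log2 fold −1.06 ± 0.08, adjusted p = 8.22e-11 by edgeR), and Plat, the tissue plasminogen activator gene, fell (−1.66 ± 0.11). Ccn3, a matricellular gene also expressed in hippocampal neurons, rose (0.63 ± 0.05), as did S1pr1, a sphingosine phosphate receptor gene (0.35 ± 0.07). Thbd, the thrombomodulin gene, had a log2 fold of −0.19 ± 0.09 (adjusted p = 0.0966). Of the kinases and MEF2 factors upstream of KLF2 and KLF4, 3 of 11 in the table were tested and 0 were called. Map3k3 had −0.59 ± 0.26 (adjusted p = 0.0692 by edgeR), in a range of 0.0434 to 0.297. It was called with all 9 libraries in the fit (adjusted p = 0.0434), without SAE replicate 2 (adjusted p = 0.0475) and without CTL replicate 2 (adjusted p = 0.0477). Map3k2 had −0.1 ± 0.06 and Pdcd10 had −0.07 ± 0.07.

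Glucocorticoid-induced genes, the class to which Klf9 and Klf15 belong, were lower in 10 of 14 tested and higher in 0, with a median log2 fold of −1.26. Fkbp5, which encodes a chaperone of the glucocorticoid receptor, averaged 336 ± 26.9 CPM in SAE and 841 ± 19.1 CPM in CTL (log2 fold −1.34 ± 0.05, adjusted p = 2.03e-16 by edgeR). Pdk4, a metabolic kinase gene, had a log2 fold of −1.75 ± 0.1, the metallothionein gene Mt1 −2.75 ± 0.42 and Errfi1, a feedback gene of EGF receptor signalling, −1.13 ± 0.19. Mt1 has 2 RefSeq transcripts and had only 2 to 28 counts a library, so its value may not stand for the whole gene. Sgk1 (−0.31 ± 0.14, adjusted p = 0.0655), Tsc22d3 (−0.43 ± 0.22, adjusted p = 0.149), Sult1a1 (−0.36 ± 0.23, adjusted p = 0.21) and Zbtb16 (0.06 ± 0.24, adjusted p = 0.869) were not called.

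The list of hormone receptors and thyroid response was mixed, with 3 higher and 2 lower of 7 and a median of 0.1. Nrgn, the neurogranin gene and a thyroid hormone target of hippocampal neurons, had a log2 fold of 0.19 ± 0.03 (adjusted p = 5.83e-05 by edgeR) and the mineralocorticoid receptor gene Nr3c2 0.26 ± 0.07. Thrsp, a thyroid-responsive gene of lipid synthesis, fell (−0.35 ± 0.08). Without any one of the 3 SAE libraries or without CTL replicate 1 the number lower was 1. Thrsp kept its call in every fit (adjusted p at most 0.00694), so the call lost was that of the other gene. The glucocorticoid receptor gene Nr3c1 had 0 to 2 counts. Thra, the thyroid hormone receptor gene, had 984 ± 26.1 CPM in SAE and 968 ± 16.7 CPM in CTL (log2 fold 0.01 ± 0.04).

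Metabolic genes known as targets of KLF15 were mostly higher in the libraries labelled SAE. Of 5 tested, 4 rose and 0 fell, with a median of 0.45. The summed Klf15 counts were lower in those libraries, but its curated mRNA overlapped between SAE and CTL. No link between Klf15 and these genes was tested. Aass, of lysine breakdown, averaged 20.1 ± 5.79 CPM in SAE and 8.24 ± 1.34 CPM in CTL (log2 fold 1.27 ± 0.21, adjusted p = 2.36e-05 by edgeR). Glul, the glutamine synthetase gene of astrocytes, had a log2 fold of 0.17 ± 0.03 and Acss1, of mitochondrial acetate use, 0.45 ± 0.1. Bcat2, of branched-chain amino acid breakdown, was just inside the threshold (1.14 ± 0.47, adjusted p = 0.0484), and the call was lost without any one of the 6 libraries, with DESeq2's Wald test, with no filter, with the filter of 1 CPM and with a replicate block, in a range of 0.028 to 0.245. Bcat2 has 5 RefSeq transcripts and had only 2 to 12 counts a library, so its value may not stand for the whole gene. The astrocyte markers, 1 higher and 4 lower of 6 tested, summed to 3420 to 3490 CPM in SAE and 3260 to 3540 CPM in CTL.

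**Figure D4:**
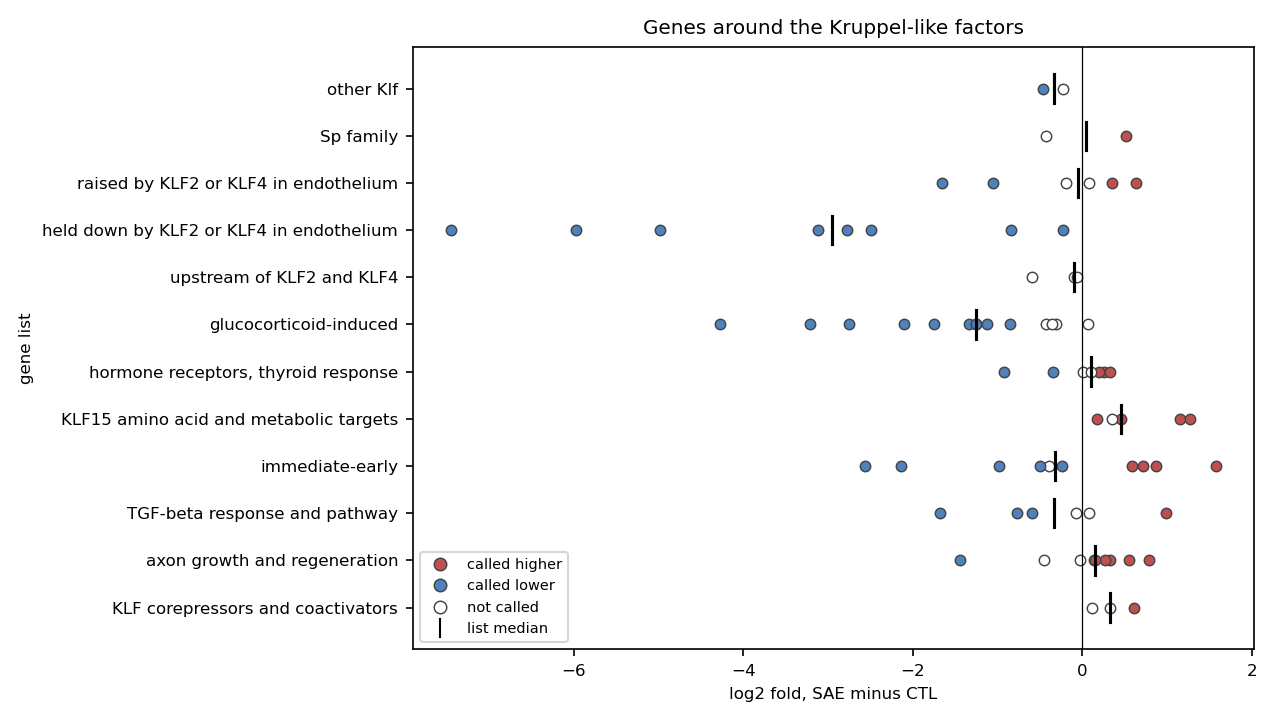
Log2 fold, SAE minus CTL, of each tested gene in the 12 lists around the KLFs. Red points were called higher, blue points lower and open points were not called (adjusted p under 0.05 over all genes tested), and a bar marks the list median. Genes held down by KLF2 or KLF4 and glucocorticoid-induced genes lie to the left, while immediate-early genes lie on both sides.

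Immediate-early genes, with which Klf2, Klf4, Klf6 and Klf10 are often induced, split. Of 10 tested 4 rose and 5 fell, with a median of −0.32. Egr4, an activity gene of neurons, averaged 115 ± 5.51 CPM in SAE and 69.4 ± 5.44 CPM in CTL (log2 fold 0.71 ± 0.08, adjusted p = 9.13e-08 by edgeR), and the neuronal gene Npas4 also rose (1.57 ± 0.2). The stress gene Atf3 fell (−2.14 ± 0.25), as did Ier3, an early gene of survival signalling (−2.56 ± 0.19). The neuronal markers, 2 higher and 1 lower of 5 tested, summed to 6970 to 7050 CPM in SAE and 6140 to 6360 CPM in CTL. Slc17a7, the vesicular glutamate transporter gene, made up most of that sum, at 6360 ± 75.4 CPM in SAE and 5660 ± 119 CPM in CTL.

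In the TGF-beta list, the pathway of Klf10 and Klf11, 1 rose and 3 fell of 6 tested, with a median of −0.34. Ccn2, a matrix gene induced by TGF-beta, had a log2 fold of −1.68 ± 0.1 (adjusted p = 2.78e-12 by edgeR), the inhibitor gene Id3 −0.77 ± 0.07 and the ligand gene Tgfb1 −0.6 ± 0.13. Smad7, the inhibitory SMAD gene, rose (0.99 ± 0.2).

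Axon growth genes, the readout by which KLF6, KLF7, KLF4 and KLF9 are known in neurons, had 6 higher and 1 lower of 9, with a median of 0.15. Gap43, a growth cone gene, averaged 488 ± 19.2 CPM in SAE and 384 ± 20.2 CPM in CTL (log2 fold 0.33 ± 0.05, adjusted p = 4.26e-06 by edgeR). The tubulin gene Tubb3 had a log2 fold of 0.27 ± 0.04, the transcription factor gene Sox11 0.55 ± 0.09 and the neurotrophin receptor gene Ntrk3 0.79 ± 0.15. Smad1, the sole called gene that fell, had −1.44 ± 0.33. Of the KLF corepressors and coactivators 3 of 12 were tested and 1 rose. Sin3b, a partner of the SIN3-binding KLFs, had 0.61 ± 0.23 (adjusted p = 0.0302), a call that was lost without any one of SAE replicates 1, 2 and 3 or CTL replicates 1 and 3, with no filter and with DESeq2's Wald test (range 0.0118 to 0.117). Hdac1 (0.11 ± 0.07) and Fbxw7 (0.32 ± 0.14, adjusted p = 0.0548) were not called, and Fbxw7 was called with all 9 libraries in the fit (adjusted p = 0.0358) and without SAE replicate 2 (adjusted p = 0.0335, range 0.0335 to 0.216).

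Other tissue markers differed between the labels to unlike degrees. Of 4 tested choroid plexus markers 1 was called higher. The whole list summed to 519 to 1010 CPM in SAE and 313 to 510 CPM in CTL. Of 5 tested oligodendrocyte markers 4 were called higher, with sums of 747 to 865 CPM in SAE and 471 to 532 CPM in CTL. Of 4 tested red blood cell markers 2 were called lower, with sums of 458 to 566 CPM in SAE and 584 to 604 CPM in CTL. Their part in the levels of the Klf genes was not tested.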

How the data were processed

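The deposited table holds whole-number counts per RefSeq transcript, which the authors made with fastp and Salmon, per the submitters' processing notes. Versions, index, build and strand setting: not given in the sources used here. Of 120312 transcripts, 120299 were matched to gene symbols with the RefSeq table of GRCm38.p6, and the 13 unmatched had 0 counts. Counts were summed per symbol.

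The comparison of SAE with CTL used the 6 libraries of these groups. Genes were kept with edgeR's filterByExpr (8213 genes), scaled with TMM factors and fitted with the robust quasi-likelihood F test. Adjusted p-values are Benjamini-Hochberg over all genes tested, called under 0.05. Each SE was taken as |log2 fold| over the root of the F statistic. CPM uses TMM factors over all 9 libraries.

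The members and gene lists were chosen with earlier results of these data known. Named genes are the members, all Klf and Sp genes, and up to 4 genes of each list with the smallest p-values. Some of these list genes are not reported here. F3, Icam1, Ccl2, Thbd, Sgk1, Tsc22d3, Sult1a1, Zbtb16, Nr3c1, Thra, Smad1, Slc17a7, Gm27252, Gm38457 and those listed at 0 were named after values were seen. Cell type markers were summed.

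Alternatives were DESeq2 size factors, DESeq2's Wald test, limma-voom, other filters, all 9 libraries, a replicate block, genes with 1 transcript, the most abundant transcript, and each library left out. Sequence windows and motif matches came from RefSeq promoters. Fits ran in edgeR 4.0.16, DESeq2 1.42.0 and limma 3.58.1 under R 4.3.3, and tables and plots in pandas 2.3.3, numpy 2.4.6 and matplotlib 3.10.9 under Python 3.11.15. The 3 libraries of a group are biological duplications per the labels. Precision is limited by counting error for genes with few counts.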

Additional observations from a re-analysis of the deposited data

How the results depend on the processing

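The log2 folds of Klf2, Klf4, Klf6, Klf9, Klf13, Klf15 and Klf16 kept their sign under every alternative run. With each library left out in turn that of Klf16 ran from 0.39 to 0.43 and that of Klf7 from −0.44 to 0.45, negative without SAE replicate 3, whose 26 counts set the main value. With genes of 1 RefSeq transcript alone, 2565 genes were called, 1281 higher and 1284 lower, of the 4776 tested, since fewer genes enter. With total counts alone as scaling, Klf16 had 166 CPM in CTL. A replicate block gave 3892 calls, against 3912 without it. The replicate numbers gave no sign of pairing, as the deviations of same-numbered SAE and CTL libraries correlated at 0.026, −0.013 and 0.023 over genes. Counting error also draws such values to 0, so a weak pairing could be missed. DESeq2's Wald test called 3186 genes and all 9 libraries together 4318. The fit with all 9 libraries takes in the CCLF columns, which varied less than counting error. The median log2 fold of all genes lay between −0.01 and 0.017 in all fits. Klf3 and Klf10, with 0 to 5 counts a library, were not compared, and a curated mRNA of each was listed at 0.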
